A study of Caenorhabditis elegans with 2 samples.

Results

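Small nucleolar RNA (snoRNA) genes of the nematode Caenorhabditis elegans were examined for binding of ATTF-6, a protein with AT-hooks, short motifs that hold the minor groove of A+T-rich DNA. The members are the windows of 500 bp to either side of the annotated start of each snoRNA gene, 346 windows among the 46890 genes of the 6 chromosomes. ChIP-seq was done on whole young adults aged 64 hours of strain RW12231, in which a CRISPR insertion adds TY1, EGFP and 3xFLAG to attf-6, so both samples carry the tagged allele. The worms had been synchronised by starving hatched larvae after bleaching, the sonicated chromatin ran from 200 to 800 bp, and the antibody was against GFP. The 2 samples are biological replicates of 1 group. They come from whole animals, so binding in one tissue cannot be told apart from binding in all. A control experiment is named in the labels and was not analysed here, so no value below is set against input or untagged chromatin.

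Most snoRNAs guide the chemical modification of other RNAs. Those with box C/D motifs guide ribose methylation with the enzyme fibrillarin, and those with box H/ACA motifs guide pseudouridylation with dyskerin. Many are cut out of the introns of host genes, while others have promoters of their own. The small nuclear RNA (snRNA) genes of the spliceosome are read through an upstream promoter element held by the SNAP complex, and RNA polymerase III reads tRNA genes through internal A and B boxes.

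A window was called bound when it held a summit, the highest point of a region, of the joint conservative list that the authors made from both replicates. Of the 346 windows, 91 were bound, which is 26.3% with a 95% Wilson interval from 21.9% to 31.2%. The background was 8.44% of the start windows of all other genes and 3.35% of those of protein-coding genes. In the list made from replicate 1 alone, 73 windows (21.1%) held a summit, against 4.46% of other genes and 2.18% of protein-coding genes. In that from replicate 2 alone the number was 71 (20.5%), against 4.44% and 1.86%. Both lists held 62 of the 91 bound windows, only 1 of the lists held 15, and neither held 14. The 91 windows shared few summits, since they had 89 distinct strongest summits, and merging overlapping windows left 88 bound of 321 loci. The intervals cover the count of windows only. The depth is unknown, because the files hold no read counts.

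A pair of letter patterns recurred before bound genes, so stretches from 100 bases before to the first 10 bases of the gene are shown here, 5′ to 3′ on the strand of the gene, from the WBcel235 (ce11) genome of RefSeq. The first 5 are bound windows that carry the pattern called the double block here, which reads AACNCG, then 5 bases of any kind, then TGTCNG. Its fixed ends are in capitals. They include the 3 bound windows of highest signal, then genes in introns of rol-3 and inx-11.
Y67A10A.14, chrIV:14327112-14327221, minus strand: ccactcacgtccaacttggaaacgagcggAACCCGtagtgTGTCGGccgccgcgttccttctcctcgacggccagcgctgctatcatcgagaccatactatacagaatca
Y73F8A.1175, chrIV:15234346-15234455, plus strand: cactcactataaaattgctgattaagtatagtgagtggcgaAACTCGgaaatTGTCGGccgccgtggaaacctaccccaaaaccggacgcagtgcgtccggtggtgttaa
Y51H4A.940, chrIV:16592934-16593043, minus strand: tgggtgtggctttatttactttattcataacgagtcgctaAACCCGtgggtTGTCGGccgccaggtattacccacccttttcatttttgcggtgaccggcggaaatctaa
C16D9.11, chrV:8228960-8229069, minus strand: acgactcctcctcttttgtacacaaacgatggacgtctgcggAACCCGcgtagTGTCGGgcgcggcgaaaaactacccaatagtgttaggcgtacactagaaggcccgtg
W04D2.7, chrV:12491180-12491289, plus strand: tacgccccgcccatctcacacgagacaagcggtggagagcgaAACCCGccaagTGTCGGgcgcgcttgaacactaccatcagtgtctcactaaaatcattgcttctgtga

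The next 3 are bound windows with the letters GTTCNANNC close to the start, called B-box-type letters here because they resemble the core of the B box of tRNA genes. These letters are in capitals, and so is TGGCTTAGT before Y43F8C.22, which matches the planned A-box pattern TGGCNNAGT. M03D4.78, a bound window whose stretch matches the double block but for 1 letter and so counts under neither pattern, and R166.10, an unbound window, follow for comparison, wholly in lower case.
Y75B12B.12, chrV:15191084-15191193, minus strand: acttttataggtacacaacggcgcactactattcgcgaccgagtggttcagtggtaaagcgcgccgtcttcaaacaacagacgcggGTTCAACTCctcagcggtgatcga
Y43F8C.22, chrV:19643178-19643287, minus strand: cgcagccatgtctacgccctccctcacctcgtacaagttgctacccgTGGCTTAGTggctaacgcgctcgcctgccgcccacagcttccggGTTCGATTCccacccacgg
C53B7.8, chrX:6867838-6867947, plus strand: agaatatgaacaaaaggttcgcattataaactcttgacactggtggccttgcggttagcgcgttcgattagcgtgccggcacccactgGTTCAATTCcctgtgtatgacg
M03D4.78, chrIV:6117867-6117976, minus strand: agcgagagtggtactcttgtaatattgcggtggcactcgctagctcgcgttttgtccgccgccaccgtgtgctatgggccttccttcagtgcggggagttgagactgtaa
R166.10, chrII:10555362-10555471, minus strand: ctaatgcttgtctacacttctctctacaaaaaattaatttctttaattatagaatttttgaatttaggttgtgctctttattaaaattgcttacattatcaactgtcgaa

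Genes with their own intergenic start and genes in host introns were bound at shares the test did not tell apart. A gene counted as having its own start when it touched no protein-coding, pseudogene or lincRNA gene body, and as intronic when it lay in such a body without touching an exon. Of the 119 genes with their own start, 37 were bound (31.1%, interval 23.5% to 39.9%). Of the 168 in introns of 148 host genes, 47 were bound (28.0%, interval 21.7% to 35.2%). The odds ratio was 1.16 (two-sided Fisher exact test, p = 0.600, adjusted p = 0.600 over the 4 tests made). The odds ratio fell below 1 with windows of 1000 bp to either side (0.650) and when any overlap of a region counted (0.879). The remaining 59 genes overlap an exon or a gene body in another way, and 7 of them (11.9%) were bound. The interval of this share, 5.87% to 22.5%, holds the background of 8.44% over all other genes. For scale, 2.54% of all intergenic bases and 1.34% of all intron bases lay within 500 bp of a conservative summit. Without the right piRNA-rich region of chromosome IV, which holds 8 of the 346 windows, these were 1.49% and 0.790%. That region was taken as neighbouring stretches of 250 kb with at least 100 annotated piRNA genes each.

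**Figure D1:**
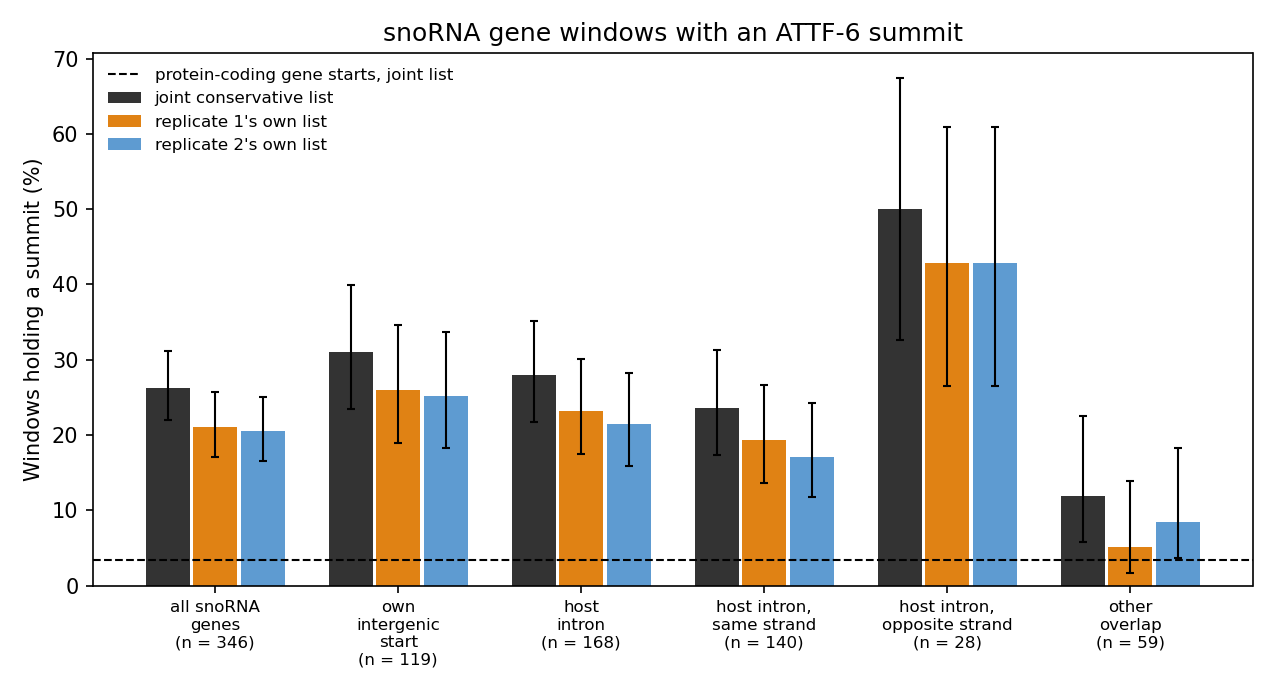
Share of snoRNA gene windows that held a summit (vertical axis, percent) in the joint conservative list and in each replicate's own list, for all 346 genes and by their place relative to other genes, with 95% Wilson intervals as error bars. Own intergenic starts (31.1%) and host introns (28.0%) sit close together, and every joint bar stands above the 3.35% of protein-coding starts drawn as a broken line. The 8.44% of all other genes is not drawn and lies within the interval of other overlap (5.87% to 22.5%).

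Intronic snoRNA genes on the strand opposite to their host were bound more often than those on the same strand. Of 28 opposite genes 14 were bound (50%), and of 140 on the same strand 33 were bound (23.6%). The odds ratio of same to opposite strand was 0.308 (two-sided Fisher exact test, p = 0.00973, adjusted p = 0.0195). The call did not hold with the other joint list (odds ratio 0.479 by the same exact test, adjusted p = 0.219), with windows of 1000 bp (0.707, adjusted p = 0.412), or for any overlap (0.443, adjusted p = 0.118). By that exact test it also missed the threshold when overlapping windows were merged (adjusted p = 0.0508), without the piRNA-rich right region of chromosome IV (adjusted p = 0.0593), and without windows that hold a coding start (adjusted p = 0.218). Over all alternatives run the adjusted p of this exact test ranged from 0.00959 to 0.412. The double block stood before 5 of the 28 opposite genes, all bound, and before 12 of the 140 others, of which 11 were bound. Among intronic genes with neither letter pattern, 7 of 17 opposite ones and 17 of 115 others were bound. The part of the letters in the strand difference was not tested.

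Summits gathered just upstream of snoRNA starts. Distances are signed along the gene, with negative values upstream. Genes with their own start had 17.6 summits per 100 genes between -100 and 0 bp, 7.56 from 0 to 100 bp, and 4.2 from 100 to 200 bp. Intronic genes had 11.9 per 100 genes in the 100 bp before the start, 3.57 in the next 100 bp, and 7.14 from 100 to 200 bp. The same 100 bp before protein-coding starts held 0.521 summits per 100 genes. The strongest summit lay in that stretch in 41 of the 91 bound windows (45.1%). At the edge of the window, the outermost members lay at 470 and 493 bp and the nearest summits beyond it at 507 and 511 bp.

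**Figure D2:**
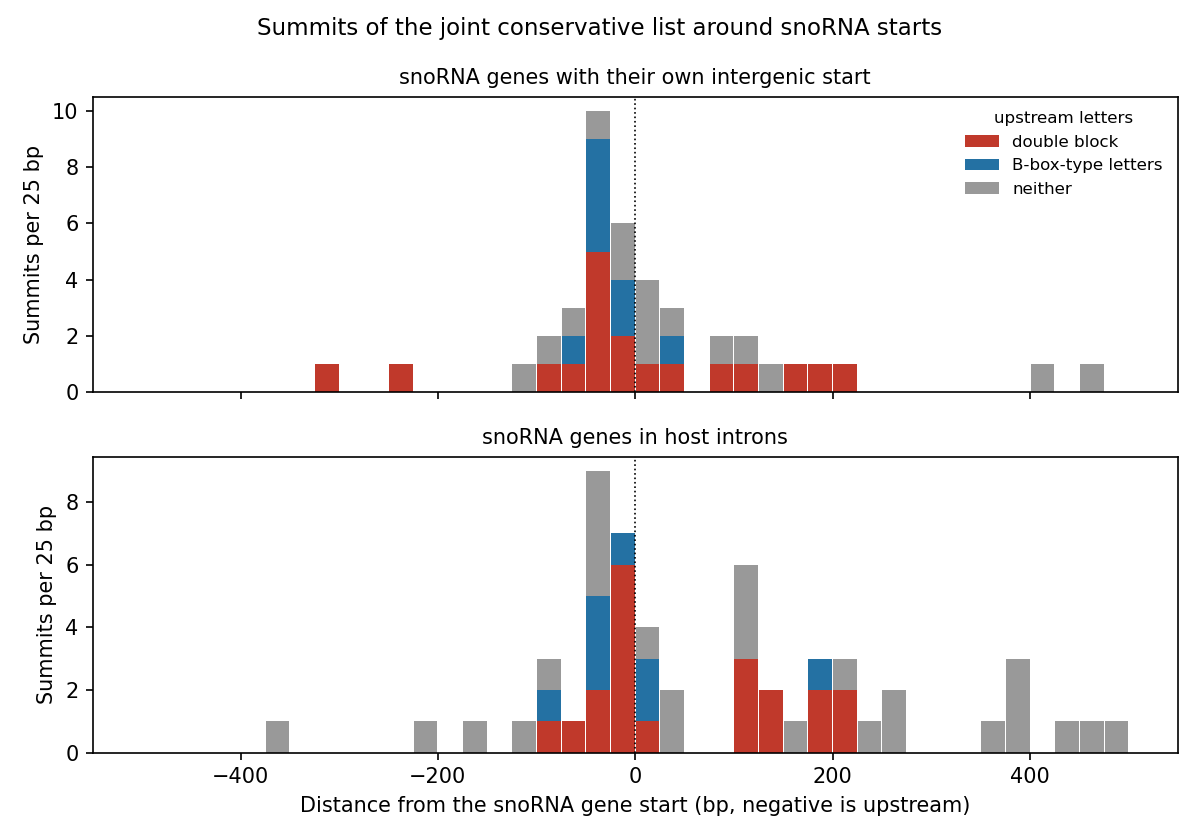
Number of conservative summits per 25 bp (vertical axis) by distance from the snoRNA start (horizontal axis, bp, negative upstream) for genes with their own start (top) and genes in host introns (bottom), coloured by the letters found upstream. Both panels peak in the 100 bp before the start, with 21 summits in the top panel and 20 in the bottom one. From 0 to 100 bp and from 100 to 200 bp the top panel falls from 9 to 5. The bottom panel rises from 6 to 12 there, a smaller second group.

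Windows with the double block before the gene were nearly all bound. These letters were read off the bound windows after their values were seen, so their counts describe these windows and carry no test. The double block occurred on the gene's strand in the 110 bases read, which end 10 bases into the gene, at 33 snoRNA genes. Of these, 31 were bound (93.9%), a share that the choice of letters helped to make high. The 33 include closely alike copies, so they are not independent. Bound were 15 of 16 with their own start and 16 of 17 in introns. The replicates' own lists held 30 and 29 of the 33, and 29 were in both. Its first base lay at a median of -59 bp, with quartiles of -61 and -58 bp. Allowing 1 different letter gave 40 genes, of which 37 were bound, so 6 of the 7 near matches were bound. B-box-type letters without the double block stood before 38 genes at a median of -14 bp, and 18 of these were bound (47.4%). Of the 275 genes with neither pattern 42 were bound (15.3%), a count that fell to 27 for regions with a global irreproducible discovery rate (IDR) of 0.001 or less. The 7 near matches are counted among the 275, and without them 36 of 268 were bound (13.4%).

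Signal, the value the authors' lists give each region, had its highest median with the double block. The letters were chosen from these same windows and libraries, so the medians describe them and carry no test. The scaling of signal was not given in the sources used here, so the letter classes were compared within a list only. Between the replicates' lists signal is set side by side further below, as a description. The median over distinct strongest summits was 269.5 with the double block, 115.0 with B-box-type letters and 105.6 with neither, beside 80.8 over all 2134 conservative summits. Outside the right piRNA-rich region of chromosome IV the median with the double block was 240.4 over 27 summits. In the ranked list of replicate 1 the medians were 146.3, 66.1 and 58.9, and in that of replicate 2 they were 110.0, 55.4 and 45.3. The ranges overlap, since the double-block windows ran from 61.7 to 2136 and those with neither pattern from 6.83 to 537.3. The quartiles with B-box-type letters, 101.8 and 144.8, lay within those with neither pattern, 75.5 and 164.8.

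**Figure D3:**
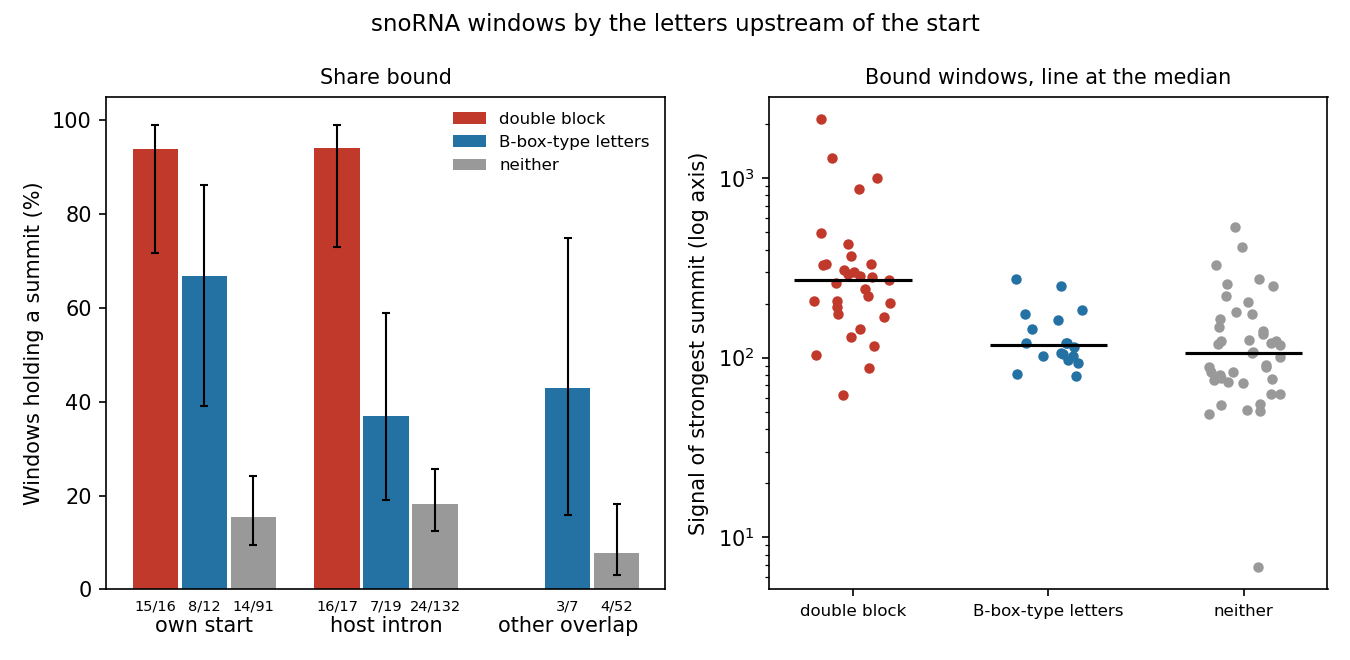
Left, share of windows that held a conservative summit (percent, with 95% Wilson intervals) by the letters upstream and the place of the gene, with bound and total windows under each bar. The letters were chosen after the values were seen, so the intervals are no test of them. Right, signal of the strongest summit of each bound window (log axis), with a line at the median over windows. The double block stands out alike at own starts (15 of 16) and in introns (16 of 17), while the signals of the 3 kinds overlap.

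Beyond the snoRNA genes, the double block stood before a larger share of snRNA genes than of the other classes read. It stood before 21 of 129 snRNA genes, and 20 of those start windows held a summit. It stood before none of 612 tRNA genes, and before 7 of 19973 protein-coding genes, of which 3 were bound. Among genes labelled ncRNA it stood before 14 of 7760 (8 with a summit), among piRNA genes before 9 of 15363 (1 with a summit), and among miRNA genes before 1 of 261, which had a summit. With at most 1 letter different, 64 of the 129 snRNA genes matched and 43 of these had a summit, beside 40 and 37 for snoRNA genes. That looser form stood before 44 protein-coding genes (6 with a summit), 38 ncRNA genes (10) and 36 piRNA genes (13). The bound share over all snRNA, ncRNA, piRNA and miRNA genes was not counted. Whether either letter pattern goes with binding in those classes was thus not tested. Across the genome the full double block occurs 1347 times, and 99 matches (7.35%) had a summit within 100 bp of them. Outside the right piRNA-rich region of chromosome IV this was 45 of 1076 (4.18%). For matches with a snoRNA gene start within 100 bases ahead the number was 22 of 33, and for those with an snRNA start 7 of 20. Of the 1294 matches before neither, 70 (5.41%) had a summit that close, and outside that region 20 of 1028 (1.95%). B-box-type letters stood before 11.0% of snoRNA genes and 9.30% of snRNA genes (12 of 129, of which 2 had a summit). The shares were 4.21% of miRNA genes, 1.62% of ncRNA genes, 1.60% of protein-coding genes, 1.44% of piRNA genes and 0.817% of tRNA genes.

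The planned motifs were sought on both strands, within 100 bases of the start and over the whole windows. The shares within 100 bases are given first. GTTCGANNC, the stricter B-box core, was in 12 of 91 bound and 14 of 255 unbound windows, against 1.17% of protein-coding starts. TGGCNNAGT was in 8 bound and 16 unbound windows, against 1.28%. AATATT was in 13.2% of bound and 7.84% of unbound snoRNA windows, against 22% of protein-coding starts. AAATTT was in 23.1% of bound and 34.1% of unbound ones, against 35.1%. TATAAA was in 17.6% of bound and 15.3% of unbound ones, against 26.5%. Over whole windows of 500 bp to either side, AAATTT was in 87.9% of bound and 86.7% of unbound ones, against 90.9% of protein-coding windows. There TGGCNNAGT was in 15.4% and 14.9%, against 8.09%, and GTTCGANNC in 19.8% and 10.2%, against 6.52%. AATATT was in 70.3% and 61.2%, against 72.1%, and TATAAA in 70.3% and 61.6%, against 73.5%.

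The stretch before bound genes was poor in A+T. Between -100 and -50 bp the mean A+T content was 45.6% for bound genes with their own start and 58.8% for unbound ones. For intronic genes it was 45.7% when bound and 57.0% when unbound. Far from the start, between 450 and 500 bp, all 4 kinds lay between 62.1% and 64.7%. Around the strongest summits of bound windows, 50 bases to either side, the median A+T content was 48.5%, beside 58.4% around the 2034 conservative summits outside snoRNA windows. The interquartile ranges overlap, from 43.6% to 55.4% and from 50.5% to 66.3%.

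**Figure D4:**
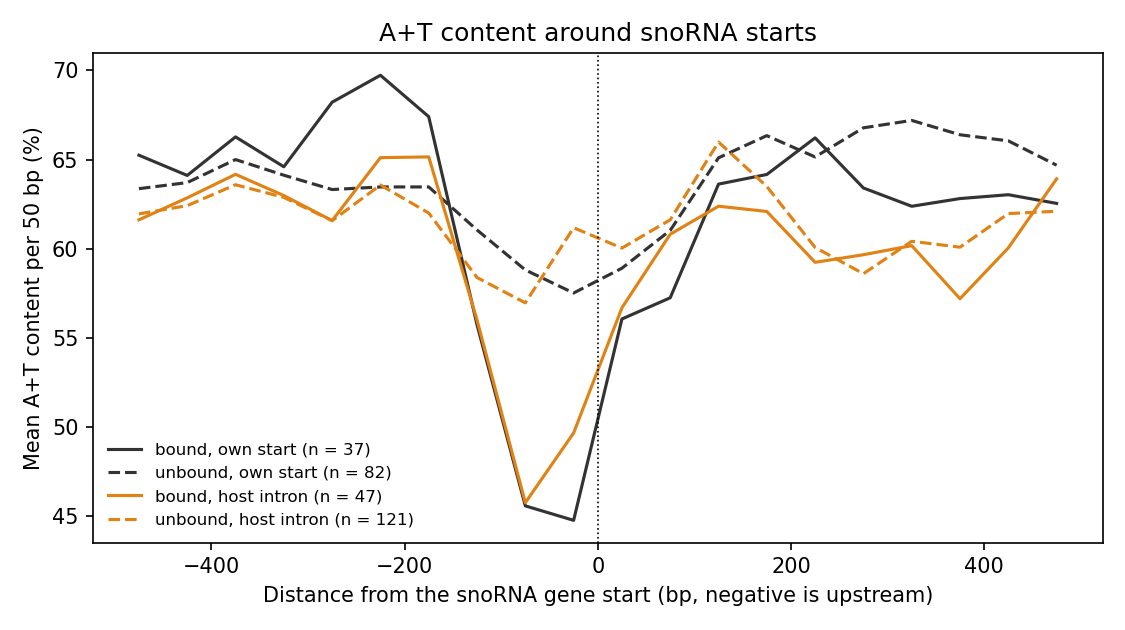
Mean A+T content (percent, vertical axis) in steps of 50 bp around snoRNA starts (horizontal axis, bp) for bound and unbound genes with their own start or in host introns. Both bound lines dip to 45.6% and 45.7% between -100 and -50 bp, where the unbound lines stay at 57.0% or above.

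The window of highest signal was that of Y67A10A.14, a gene of 174 bases with its own start. Its summit at -31 bp had the fourth highest signal of the whole conservative list, 2136, and ranked-list signals of 1205 in replicate 1 and 962 in replicate 2. Next came Y73F8A.1175, which stands on the opposite strand within an intron of pkd-2, which encodes a polycystin channel. Its signal was 1298, with 738 and 564 in the replicates and a summit at -18 bp. Y51H4A.940 followed with 1000 (478 and 429, summit at -27 bp) and Y105C5A.1283 with 874 (452 and 402, summit at -40 bp). These 4 lie in the right piRNA-rich region of chromosome IV, carry the double block and were called in both replicates' own lists. Only 9 bound snoRNA windows had a summit among the 100 strongest of the list.

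Most of the other strong windows with their own start also had a summit in both own lists. C17H12.36 (signal 537.3) and M03D4.78 (412.0) had neither pattern in full, though both match the double block but for 1 letter, and the summit of C17H12.36 lay at 416 bp. T08B6.64 (367.5), W03B1.17 (333), Y53F4B.47 (328), C16D9.10 (307) and F59C6.15 (282) carried the double block. Their replicate signals ran from 146 to 221 in replicate 1 and from 110.0 to 164 in replicate 2. The window of C16D9.10 also holds the start of a tRNA, snRNA or rRNA gene. Y75B12B.12 (275.3) had B-box-type letters, and smy-3 (256) was also 1 letter short of the double block. smy-3 and its relative smy-2 carry the snoRNA label in the annotation used.

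Among the strongest intronic windows, F54F11.6 in sre-45, a chemoreceptor gene, reached 494.7 with a summit at 190 bp. F01D5.12 (431), C08D8.3 (332.5), C16D9.11 (299.8), ZK994.7 (292), Y73B6A.14 (286), T06D8.11 (269.5) and Y55F3BR.9 (262) all had the double block. C16D9.11 lies in rol-3, a receptor kinase gene, and ZK994.7 in pxn-1, a peroxidasin gene. K07C10.2 (328.4) and Y43B11AR.7 (275.3) had neither pattern, and the latter lies in rps-4, a ribosomal protein gene, with its summit at 387 bp. C51F7.3 in frm-7 (250.3) had B-box-type letters and shares its summit with the window of C51F7.4.

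Signals of bound windows were also set side by side between the replicates. Over the 89 bound windows with a summit in both ranked lists, Spearman's rho between replicate signals was 0.886, a description only, since the conservative list keeps regions whose ranks match between the same 2 libraries. The signal was higher in replicate 1 in 65 of the 89. Over their whole own lists the median was 58.8 in replicate 1 and 53.3 in replicate 2. With the scaling of signal not given, these values cannot tell whether binding differed between the replicates. The strongest summits of the replicates lay within 50 bp of each other in 67 windows, with a median gap of 25 bp.

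**Figure D5:**
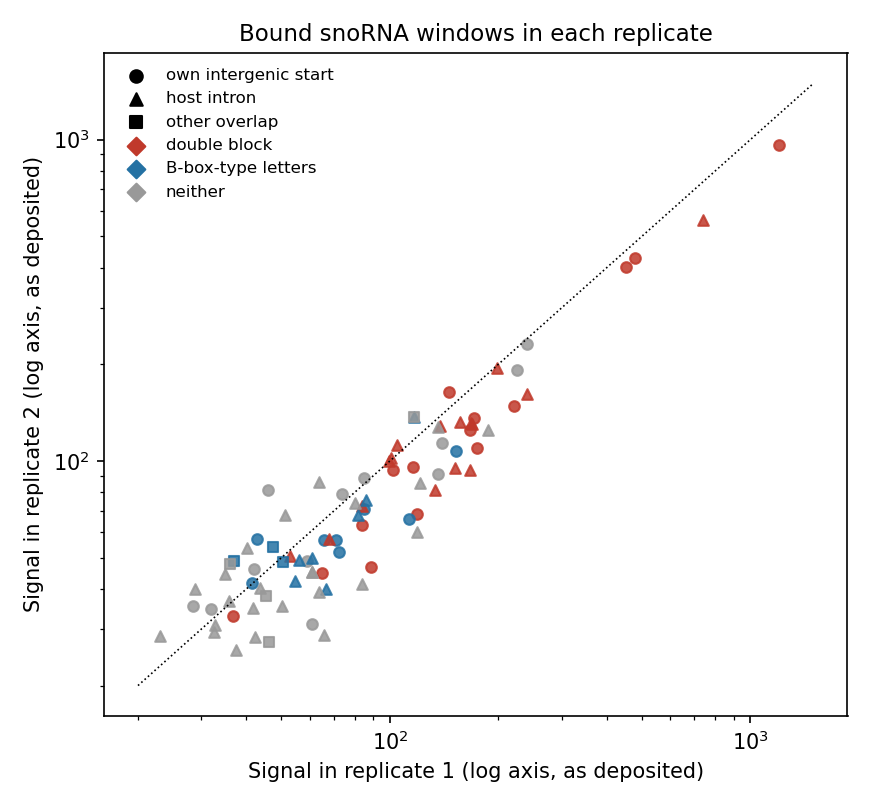
Signal of the strongest summit of each bound snoRNA window in the ranked list of replicate 1 (horizontal log axis) and of replicate 2 (vertical log axis) for the 89 windows with both, shaped by place and coloured by upstream letters. The dotted line marks equal values, and 65 windows lie below it. Y67A10A.14 stands at the upper right with 1205 and 962.

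A strong region was present at 1 of the 2 double-block windows that were not called. Y57G11C.1145 had a signal of 873.6 in the joint ranked list, with a summit at -48 bp, a global IDR of 1e-05 and replicate signals of 523 and 410. It passes the authors' level of 0.01 but is missing from the conservative list, and was also missing from the other joint list. C02C6.13, in an intron of lron-3 on chromosome X, had 20.5 at an IDR of 0.848. The other unbound windows of highest ranked signal were ZK484.9 (89.2), M106.6 (68.9), T24H7.6 (67.3), Y105C5B.1419 (59.9) and F58D5.12 (59.1). ZK484.9, M106.6 and T24H7.6 have B-box-type letters, and their windows' IDR was between 0.0171 and 0.211. Of the 255 unbound windows, 182 (71.4%) held a summit of the joint ranked list, which runs far below the threshold and gave 55.9% for protein-coding starts.

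Genes with box C/D-type letters were bound more often than the other snoRNA genes. These letters were TGATGA in the first 25 bases and CTGA in the last 25, and only 15 genes had both. Of the 15, 10 were bound (66.7%), and of the other 331, 81 (24.5%) were. The odds ratio was 6.17 (two-sided Fisher exact test, p = 0.000942, adjusted p = 0.00377), and the call held under every alternative run, with adjusted p by the exact test up to 0.0427. H/ACA-type letters, ACA in the last 6 bases, occurred in 78 genes, of which 20 were bound (25.6%). The remaining 253 genes had neither kind of box letters, and 61 of them were bound (24.1%). The test thus compares exact letters, and the other 331 genes need not lack box C/D motifs. Of the 15 C/D-type genes, 4 carried the double block and 4 B-box-type letters, all 8 bound, and 2 of the 7 with neither pattern were bound. No gene with H/ACA-type letters carried the double block. The part of the upstream letters in the C/D-type difference was not tested.

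A larger share of the short genes was bound, a split made after the values were seen and given with no test. Of 95 genes of up to 100 bases 43 were bound (45.3%), and of 251 longer ones 48 were (19.1%). Among genes with neither pattern the numbers were 19 of 64 and 23 of 211. All 19 longer genes with the double block were bound, as were 12 of the 14 short ones.

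Alike genes were also compared. Aligning the gene sequences at 80% identity or more gave 12 groups with 29 genes. In 7 groups every gene was bound, and in each of these the genes stood at separate loci. In 4 groups none was bound, and in 1 only B0412.7 of a pair in rps-29 was. The 5 genes F25H2.15, F43A11.8, F59C6.15, T19C4.11 and Y67A10A.14 share 88.3% to 98.2% of their letters, all carry the double block, and had signals of 129.9, 144.6, 282, 207.9 and 2136. The 4 genes W07G1.23, Y105C5A.1283, Y48A6C.10 and Y51H4A.940 had 174.4, 874, 240.4 and 1000. The placing of reads that match several copies, not given in the sources used here, leaves it unknown whether signal is split or shared between near-identical copies.

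Hosts with several intronic snoRNA genes were counted as well. The 3 hosts with at least 3 intronic snoRNA genes were nol-56, a core box C/D protein gene, with 4, rpl-6 with 3, and top-2, the topoisomerase II gene, with 3. None of these 10 windows held a conservative summit, beside 28.0% of all intronic windows, but they overlap so far that they merge into 3 loci. Of the 13 hosts with 2 intronic snoRNA genes, 2 were bound at both, 2 at 1 of them and 9 at neither. The share was not counted over hosts with 1 such gene, so these counts cannot be called particular to hosts with several. In introns of cytosolic ribosomal protein genes 7 of 23 windows were bound, with no strongest summit in the 100 bp before the snoRNA start. Their summits lay at a median of 261 bp from it, and none carried either letter pattern. In introns of other genes 40 of 145 were bound, 18 of them in that stretch, at a median of 10 bp. The 7 bound snoRNA starts in ribosomal protein introns lay 184 to 752 bp from the nearest host start. Of all 47 bound intronic windows 15 held the host start. Whether a summit belongs to the snoRNA gene or to its host was not tested.

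By chromosome, bound windows were commonest on IV and rarest on X. Bound were 26 of 59 windows on chromosome IV (44.1%), 18 of 55 on V (32.7%), 19 of 71 on II (26.8%), 17 of 74 on I (23.0%), 8 of 54 on III (14.8%) and 3 of 33 on X (9.09%). The Wilson intervals of neighbours in this order overlap. The 3 on X were C53B7.8 (121), M163.14 (62.7) and T21F2.3 (61.7). C53B7.8 was called in both own lists and the other 2 in neither, and the window of M163.14 also holds the start of a tRNA, snRNA or rRNA gene. In the right piRNA-rich region of chromosome IV 5 of 8 windows were bound, and 86 of 338 (25.4%) outside it. The share over all genes was not counted by chromosome or for that region, so these differences cannot be called particular to snoRNA genes. Of all bases on the 6 chromosomes, 1.93% lay within 500 bp of a conservative summit, and 1.28% without that region. Only 4 windows hold the start of a tRNA, snRNA or rRNA gene, and 3 of those were bound. A protein-coding start lay in 27 of the 91 bound windows, and without such windows 64 of 260 (24.6%) were bound.

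Of the 27 matched genes for proteins that make snoRNAs or work with them, 5 had a summit at the promoter. The promoter here ran from 1000 bp upstream to 200 bp downstream of any transcript start, and 4.29% of protein-coding genes had a summit in it. Of 11 genes for snoRNA proteins and their assembly 2 had one, fib-1, the fibrillarin gene (73.2, at -93 bp), and K01G5.5, or dkc-1, the dyskerin gene (73.9, at -339 bp). Of 17 genes listed for RNA polymerase III, its factors and the SNAP complex, 16 matched the annotation and 3 had one. These were the polymerase subunit gene rpac-19 (88.3) and the SNAP complex genes snpc-3.1 (93.9) and snpc-3.4 (99.8). In this count of 5 genes no test was made, and 2 genes of the lists had a summit in the list from replicate 1 alone and 3 in that from replicate 2 alone.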

How the data were processed

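The deposited files are peak lists on ce11, per the notes deposited with the samples: a ranked and a thresholded list for each replicate and for both together, 1 of the joint thresholded lists being named conservative. Signal was taken as deposited, with a scaling not given in the sources used here. Deposited ranked lists also hold the −log10 of the global irreproducible discovery rate (IDR), a measure of how poorly the replicates' rankings match. All 2134 conservative regions stand in the joint ranked list at an IDR of 0.01 or less. Nothing was assumed of an aligner, a peak caller or the treatment of reads with several matches, each not given in the sources used here. Depth is unknown, and intervals cover the count of windows only. In the joint ranked list 8 columns of values of the replicates, which carry no replicate number, were not used.

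Gene models came from Ensembl release 115, and symbols and sequence from RefSeq, both on WBcel235. Summits, counted from 1, were matched to windows, and shares were given Wilson intervals at 95%. Fisher exact tests and a permutation test with 100000 resamples took windows as units, and the p-values of these 4 tests were adjusted by the Benjamini-Hochberg method. Such p-values describe the pooled list, not the spread between animals, and windows that overlap are not independent. The permutation test compared the median log2 signal of bound windows, 7.34 for 37 own starts and 6.96 for 45 intronic ones, a difference of 0.37 (permutation p = 0.364, adjusted p = 0.485). The counting was tested on simulated data.

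The members and lists were chosen with earlier results of these data known. The upstream letters came from reading runs of 6 to 8 letters before genes with a summit near the start against unbound ones, and the B-box-type letters loosen a planned motif. Of several forms tried for the double block the stricter was kept. The split by length, the ribosomal protein hosts, the groups of alike genes, the stretch of 100 bp before the start and the sequences shown were also chosen after values were seen. Alike genes shared at least 5 runs of 8 letters, 80% identity and 80% of the shorter gene in a global alignment, and a length ratio of 0.7 or more. Genes were named by signal (the 12 highest with own starts and the 12 in introns, the 20 strongest in both own lists, the bound ones on X, the 6 strongest unbound ones), by their host, and by their place in the protein lists. Alternatives were another list, each replicate's own list, an IDR of 0.001, windows of 200 or 1000 bp, any overlap, merged windows, and 3 kinds of window left out. Python 3.11.15, scipy 1.17.1 and Biopython 1.88 were used.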

Additional observations from a re-analysis of the deposited data

How the results depend on the processing

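Across the alternatives run, 79 values kept their direction and their side of the threshold, or stayed within 1.5 times the count or within its interval. Of the rest, 6 counts moved further, 4 effects turned direction and 6 lost their call. The count of bound snoRNA windows was among the 79 under every setting. It ran from 71 (20.5%) without replicate 1 to 119 (34.4%) with windows of 1000 bp. Both ends lie outside its interval of 21.9% to 31.2% and were kept by the 1.5 times rule. The background was counted for windows of 500 bp only. The odds ratio of same to opposite strand, 0.308, lost its call with the other joint list (0.479), windows of 1000 bp (0.707), any overlap (0.443), without the right region of chromosome IV (0.367), with merged windows (0.367) and without coding starts (0.433). The last setting and the letter counts were chosen after seeing the data. The odds ratio of own start to host intron turned to 0.650 with windows of 1000 bp and 0.879 with any overlap. The log2 difference in signal between those classes, 0.37, turned to -0.15 with windows of 200 bp and -0.24 without coding starts. The test of own start against host intron and that of signal passed the threshold under none of the settings run. Of genes with neither letter pattern, 42 were bound in the joint list, 26 without replicate 2 and 28 without replicate 1, 27 at an IDR of 0.001, 69 with windows of 1000 bp and 22 without coding starts. Of the 5 protein genes with a promoter summit, the count was 2 without replicate 2 and 3 without replicate 1. The cause was not tested. No paired analysis was possible because both samples belong to 1 group. With 2 replicates and no read counts, nothing here measures the spread between animals.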
